A study of Arabidopsis thaliana with 6 samples.

Results

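miR173, miR390 and miR828 are the miRNAs that set off trans-acting siRNA production in Arabidopsis thaliana. Their intervals were picked by name from the small RNA count tables: every interval of the families miR173, miR390 and miR828, mature or star (the partner strand of the miRNA duplex). For miR173 the tables name ath-miR173-5p, ath-miR173-5p-star, ath-miR173-3p and ath-miR173-3p-star, written without the species prefix from here on. There were 10 such intervals of 679, and 9 once miR390a and miR390b, whose counts were identical in all 6 libraries, were counted once. The libraries came from 10-day-old Col-0 seedlings that had spent a day in water. The genotypes were wild type (WT), parg1-1, and parp1parp2, with 1 untreated library and 1 library given 100 nM flg22, a bacterial flagellin peptide, for each. The mutants are named for PARG1, an enzyme that removes poly(ADP-ribose) from proteins, and for the PARP enzymes that add it. Whole seedlings were used, so fewer cells of a type and less RNA per cell cannot be told apart. With 1 library per group, no pair of libraries has a replicate check.

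Trans-acting siRNAs start from noncoding TAS transcripts. A trigger miRNA, loaded into an ARGONAUTE protein, guides cutting of the transcript. RNA-dependent RNA polymerase RDR6 then copies the fragment, and DCL4 dices the double strand into phased siRNAs that silence other genes in trans. miR173 acts through AGO1 on TAS1 and TAS2, whose siRNAs reach many pentatricopeptide repeat (PPR) transcripts. miR390 acts through AGO7 on TAS3, whose siRNAs restrain the auxin response factors ARF3 and ARF4 and so shape leaf polarity and phase change. miR828 acts on TAS4, whose siRNAs, like miR828 itself, target MYB transcripts of the anthocyanin pathway.

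The trigger sequences are shown first, because target match separates all of them, while length and first base set only miR390 apart. They were read from the RefSeq TAIR10.1 genome in DNA letters, 5′ to 3′, with the seed (bases 2 to 8) in capitals.
miR173-5p: tTCGCTTGcagagagaaatcac
miR390a and miR390b: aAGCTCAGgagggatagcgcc
miR828: tCTTGCTTaaatgagtattcca
miR173-5p-star: gATTCTCTgtgtaagcgaaag
miR390a-star: cGCTATCCatcctgagtttca
miR390b-star: cGCTATCCatcctgagttcca

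The 3 triggers share no seed. miR173-5p and miR828 are 22 bases long and start with T (U in the RNA), while miR390 is 21 bases long and starts with A, the first base that AGO7 is known to require of it. Of the 337 mature intervals in the tables, 32 were 22 bases long and 261 were 21. The star strands of the miR390 hairpins differ at 1 base, T19C, counted from the 5′ end of miR390a-star with the base of miR390b-star last. A miR390a-star read with an error there would look like miR390b-star, so miR390b-star is uncertain.

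All 10 intervals lie on the plus strand, and no other annotated gene spans any of them. miR173-5p lies at chr3:8236161-8236182 (TAIR10), in the hairpin gene MIR173 (AT3G23125), with miR173-3p at chr3:8236227-8236247. The tables also name miR173-3p-star at chr3:8236162-8236183 and miR173-5p-star at chr3:8236228-8236248, each shifted 1 base downstream of a mature interval. miR390a lies at chr2:16061971-16061991 in MIR390a (AT2G38325) and miR390b at chr5:23636961-23636981 in MIR390b (AT5G58465). miR828 lies at chr4:13847020-13847041 in MIR828 (AT4G27765).

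Each trigger was laid without gaps along the sense strand of the 8 TAS loci of the tables, and sites were scored as mismatches plus 0.5 for each G:U pair. The sites below carry the trigger relation, with the bases that do not form a Watson-Crick pair in capitals.
TAS1a and TAS1c, miR173-5p site: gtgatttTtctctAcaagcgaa
TAS1b, miR173-5p site: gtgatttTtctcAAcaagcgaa
TAS2, miR173-5p site: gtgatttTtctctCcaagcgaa
TAS3a, upstream miR390 site: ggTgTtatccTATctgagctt
TAS3a, downstream miR390 site: TTGTctatccctcctgagctA
TAS4, miR828 site: tggaatactcatttGagcaaga

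miR828 matched TAS4 with 0 mismatches and 1 G:U pair, a score of 0.5, against 7.5 to 9.5 for its best site in the other 7 loci. miR173-5p had a best score of 1.5 to 2.5 in TAS1a, TAS1b, TAS1c and TAS2, and 7 to 8.5 in the other 4. miR390 had a best score of 3 in each of TAS3a, TAS3b and TAS3c, and 7.5 to 8.5 in the other 5. The second-best miR390 site scored 5 in TAS3a, 6.5 in TAS3b and 4 in TAS3c, and TAS3 is known for a pair of miR390 sites around its siRNA region. The upstream TAS3a site (chr3:5862099-5862119) has such bases at its middle and before it, and the downstream site (chr3:5862343-5862363) has them at its ends. These matches describe sequence only. The TAS intervals themselves had 0 counts in every library (0 of 8 above 0), and no source used here states how reads were assigned, so siRNA output was not measured.

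**Figure D1:**
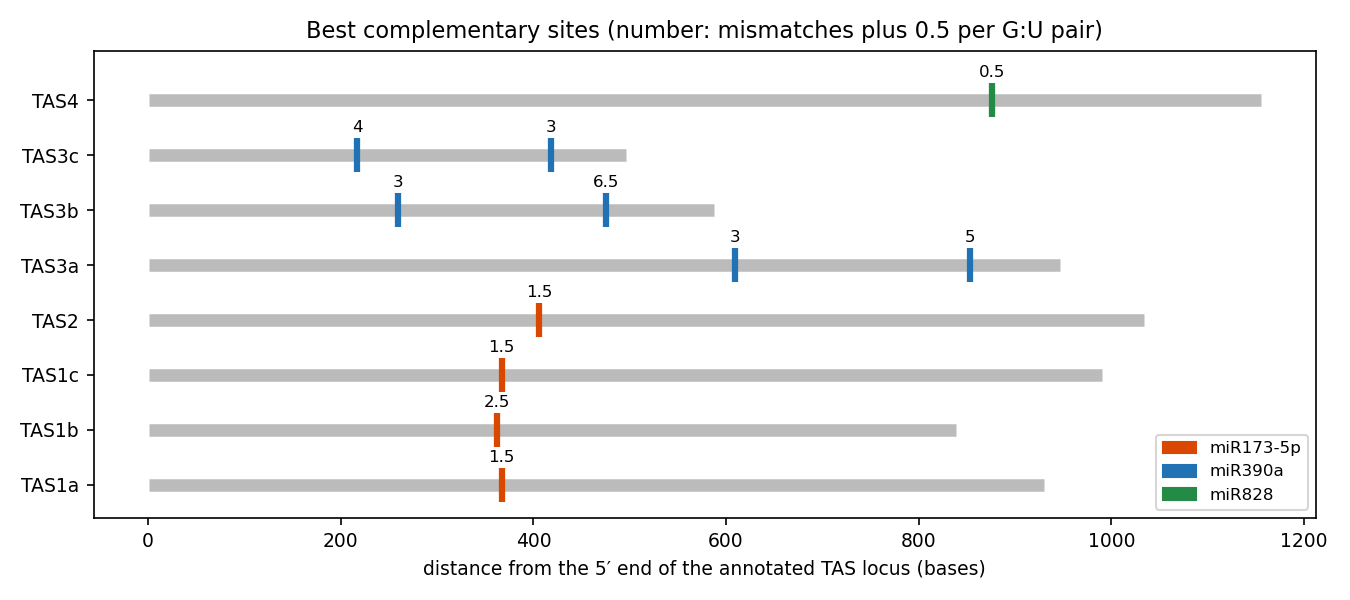
Best ungapped sites of miR173-5p (TAS1, TAS2), miR390 (TAS3, best and second best) and miR828 (TAS4) along the 8 TAS loci, as distance in bases from the 5′ end of the locus. The number above each mark is the score, from 0.5 for miR828 on TAS4 to 6.5 for the second miR390 site of TAS3b.

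Total counts ran from 247508 to 408805 per library. A count of 0 allows up to 3 counts, or 7.34 to 12.1 CPM, the count set to the same total in every library, and all intervals given here cover counting error only, since the reads were amplified by PCR and the labels name no molecular identifiers. Levels are CPM scaled by TMM (a trimmed-mean scaling between libraries). A miRNA read spans the whole molecule, so no length correction was made, and ranks and counts of different miRNAs are given as descriptions, with no test.

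The mature strands of miR390 and miR173 were well covered. In WT, miR390 had 2776 scaled CPM untreated and 2592 with flg22. In parg1-1 it had 2155 untreated and 1766 with flg22. In parp1parp2 it had 2425 untreated and 2059 with flg22. Both parg1-1 libraries thus fell below both WT libraries, and in each genotype the flg22 library was the lower, an order that turned in WT when identical sequences were counted once before scaling. How many other sequences had these orders was not counted. The miR390 levels rest on 509 to 1080 counts, and miR390 ranked from 22 to 24 among the distinct mature and star sequences in each library.

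In WT, miR173-5p had 2808 scaled CPM untreated and 2134 with flg22. In parg1-1 it had 1806 untreated and 1435 with flg22. In parp1parp2 it had 2046 untreated and 2633 with flg22, so parp1parp2 was the genotype in which the flg22 library was the higher. Its counts ran from 465 to 889, and its rank from 21 to 26. Over the 6 libraries the coefficient of variation was 16.2% for miR390 and 23.8% for miR173-5p, beside a median of 26.8% over the 136 distinct sequences tested.

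The star strands were scarcer. In WT, miR390a-star had 218 scaled CPM untreated and 151 with flg22. In parg1-1 the values were 239 and then 207, and in parp1parp2 148 and then 210. It rested on 43 to 81 counts, and the genotypes overlapped. In WT, miR173-5p-star had 42.2 scaled CPM untreated and 31.2 with flg22. In parg1-1 it went from 59.1 to 24.7, and in parp1parp2 from 37.9 to 16.2. It was lower with flg22 in 3 of 3 genotypes, on 4 to 20 counts. The share of all loci with this order was not counted.

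The remaining members were near the limit of detection. In WT, miR828 had 2 counts untreated and 3 with flg22. In parg1-1 it had 2 and then 1, and in parp1parp2 0 and then 1. That is 9 counts in all, and miR828-star had 0 in all 6 libraries, so a difference in miR828 was not detectable at this depth. miR390b-star had 1 to 8 counts, miR173-3p 1 to 5 and miR173-3p-star 5 to 15. Of the 10 intervals, 5 reached at least 10 counts in at least 2 libraries and entered the tests. They hold 4 distinct sequences: miR390 (both loci), miR390a-star, miR173-5p and miR173-5p-star.

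**Figure D2:**
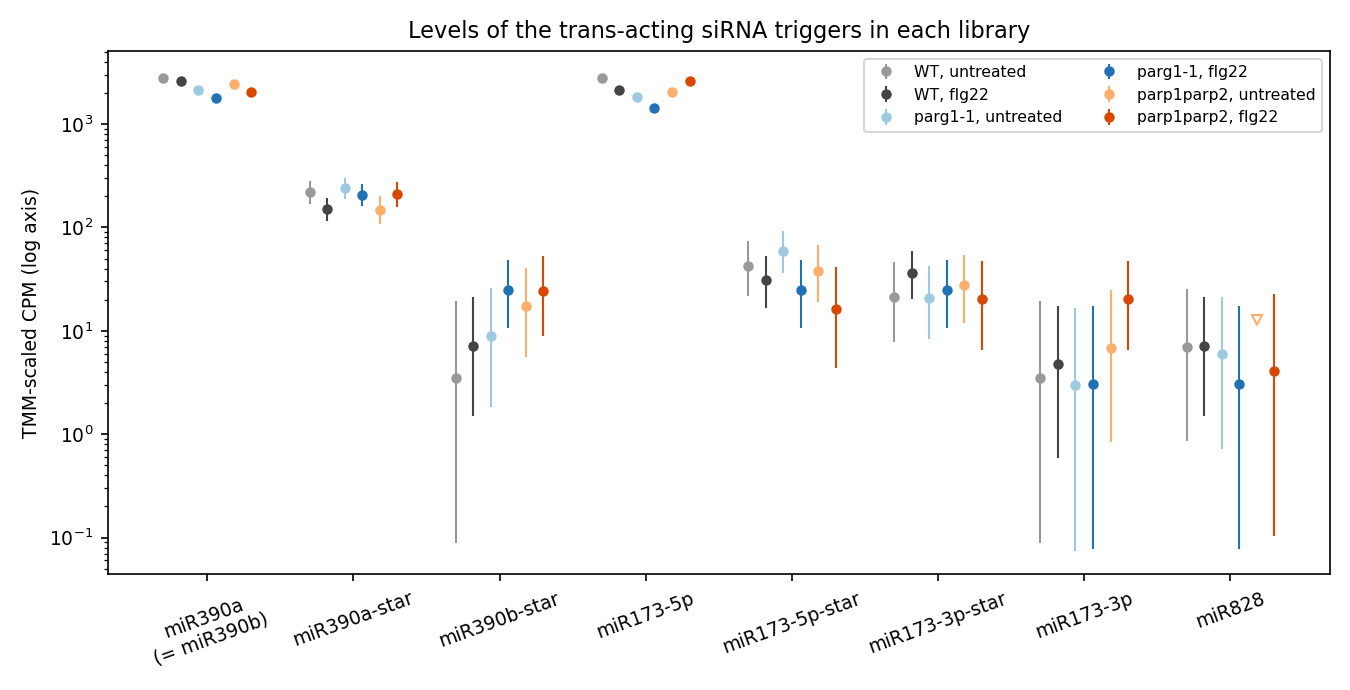
TMM-scaled CPM (log axis) of 8 members in each of the 6 libraries, with exact Poisson 95% intervals. miR390a and miR173-5p lie between 1435 and 2808, and the open triangle is the upper limit for miR828 in untreated parp1parp2, where it had 0 counts.

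The first comparison asked whether the triggers responded to flg22 across genotypes. None of them (0 of 5 loci) passed the test, edgeR's quasi-likelihood test on an additive model of genotype and treatment with Benjamini-Hochberg adjustment, and 0 did at an unadjusted p under 0.05. DESeq2 called 0 of the 5, with 0 unadjusted. The background gives little room for a call. edgeR called 0.0% of 187 loci and DESeq2 called 0, each with 1 at an unadjusted p under 0.05. The log2 difference was -0.21 ± 0.21 for miR390 (SE, with an adjusted p from edgeR of 0.996) and -0.12 ± 0.24 for miR173-5p. That of miR173-5p-star was -0.92 ± 0.42, with the same adjusted p, and its unadjusted edgeR p of 0.0544 ranked 2 among the 187. The median over the 4 sequences was -0.16, beside -0.02 over all 136.

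Within genotypes, miR173-5p moved in opposite directions. Its log2 ratio of flg22 to untreated was -0.40 in WT (95% interval -0.54 to -0.26) and -0.33 in parg1-1 (-0.51 to -0.16). In parp1parp2 it was 0.36 (0.20 to 0.53). With identical sequences counted once before scaling, the WT ratio was -0.22, outside its interval. miR390 had -0.10 in WT (-0.23 to 0.04), which became 0.07 when identical sequences were counted once before scaling. It had -0.29 in parg1-1 (-0.45 to -0.13) and -0.24 in parp1parp2 (-0.40 to -0.07). miR390a-star had -0.53 (-1.06 to 0.00089), -0.21 (-0.70 to 0.27) and 0.51 (-0.10 to 1.12) in WT, parg1-1 and parp1parp2. No member (0) was at least 2-fold apart with 50 or more counts in its higher library in any of these pairs, where 3.74%, 1.07% and 3.74% of the 187 loci were.

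The difference between responses was tested with a term that lets 1 mutant respond to flg22 apart from the shared response, which leaves 1 residual degree of freedom. For parp1parp2, miR173-5p stood at 0.73 ± 0.41 on the log2 scale (SE, with an adjusted p from edgeR of 0.482) and miR390a-star at 0.87 ± 0.50 (adjusted p = 0.482). miR390 had -0.04 ± 0.41, which was 0.07 without the low-count filter. None of the 5 loci (0) passed, where edgeR called 5.88% of 187 loci. At an unadjusted p under 0.05 there were 0 of the 5, against 22 of the 187. The median over all 136 sequences was itself 0.32 in this contrast. For parg1-1 the 4 sequences lay between -0.50 and -0.12, with 0 called (0.0% of all loci), and the largest SE was 1.18, for miR173-5p-star. DESeq2 called 0 members in both, with 0 at an unadjusted p under 0.05. Of all 187 loci it called 2 for parp1parp2, with 7 unadjusted, and 0 for parg1-1, with 1 unadjusted.

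The ratio of miR390 to miR173-5p needs no scaling between libraries, and was chosen as a measure after the counts were seen. In WT it was 0.989 untreated (95% interval 0.895 to 1.09) and 1.22 with flg22 (1.11 to 1.33). In parg1-1 it was 1.19 (1.07 to 1.33) untreated and 1.23 (1.09 to 1.39) with flg22. In parp1parp2 it was 1.18 (1.06 to 1.32) untreated and 0.782 (0.695 to 0.879) with flg22. The parp1parp2 library with flg22 was the lowest of the 6, and its interval, which covers counting error only, overlapped none of the others. How often ratios of other miRNAs set a library apart in this way was not counted. Across treatments the ratio was 1.08 ± 0.255 (SD, n = 3) with flg22 and 1.12 ± 0.116 untreated (two-sided exact permutation p = 1, where 3 against 3 cannot go below 0.1). Without the parp1parp2 library with flg22 the difference between treatments turned from -0.0467 to 0.10.

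The second comparison asked whether the triggers differed in parg1-1. Both mature triggers were lower there in 2 of 2 treatments, and neither passed. The share of all loci lower in both treatments was not counted. The median log2 ratio to WT over the tested loci was -0.04 untreated and -0.02 with flg22. On the log2 scale miR173-5p was at -0.61 ± 0.29 (SE, with an adjusted p from edgeR of 0.281) and miR390 at -0.46 ± 0.26 (adjusted p = 0.342). Over all settings run, left-out libraries included, these stayed between -0.78 and -0.36, and between -0.57 and -0.28. The star strands had 0.28 ± 0.33 for miR390a-star and 0.11 ± 0.49 for miR173-5p-star. In all, 0 of 5 loci passed, against 10.7% of the 187 loci, and 0 had an unadjusted p under 0.05, against 39 of the 187. DESeq2 gave 0 and 0, against 10 and 24 of the 187.

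In single pairs, miR173-5p in parg1-1 was 0.643 times its WT level untreated (log2 -0.64, -0.79 to -0.48) and 0.673 times with flg22 (-0.57, -0.74 to -0.41). miR390 was 0.776 times (-0.37, -0.51 to -0.22) and 0.681 times (-0.55, -0.70 to -0.41). These intervals exclude equality by counting error alone. No member (0) was at least 2-fold apart with 50 or more counts in its higher library, where 4.81% of loci were untreated and 9.63% with flg22. miR390b-star, on 1 to 8 counts, was 2.52 and 3.43 times WT, with intervals that include equality.

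The third comparison asked the same of parp1parp2. miR390 was at -0.26 ± 0.26 against WT on the log2 scale (SE, with an adjusted p from edgeR of 0.972), and was 0.873 times WT untreated and 0.794 times with flg22. The untreated value was above WT, at a log2 ratio of 0.09, with identical sequences counted once. miR173-5p had -0.06 ± 0.29, and its sign turned with DESeq2 size factors. Its single pairs went opposite ways, with a log2 ratio of -0.46 (-0.61 to -0.30) before flg22 and of 0.30 (0.16 to 0.45) after it. With identical sequences counted once, the untreated ratio was -0.17, outside its interval. None of the 5 loci (0) passed (0.535% of all loci called), and 0 had an unadjusted p under 0.05, against 17 of the 187 loci. DESeq2 gave 0 and 0, against 1 and 7 of the 187. No member (0) was at least 2-fold apart with at least 50 counts, where 4.28% of loci were in each treatment. Below that count, miR390b-star was 4.89 and 3.37 times WT and miR173-3p 4.21 times with flg22, with intervals that include equality.

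Set directly against parg1-1, parp1parp2 had more miR173-5p in 2 of 2 treatments, with 0.54 ± 0.30 on the log2 scale (SE, with an adjusted p from edgeR of 0.313), which did not pass. It passed without the untreated parp1parp2 library (0.89, adjusted p = 0.0291). Over the alternatives its adjusted p ran from 0.0291 to 0.884. miR390 had 0.20 ± 0.26. The share of all loci higher in parp1parp2 in both treatments was not counted. In all, 0 of 5 loci passed, where 1.07% of loci did, and 0 had an unadjusted p under 0.05, against 29 of the 187. DESeq2 gave 0 and 0, against 8 and 22 of the 187.

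**Figure D3:**
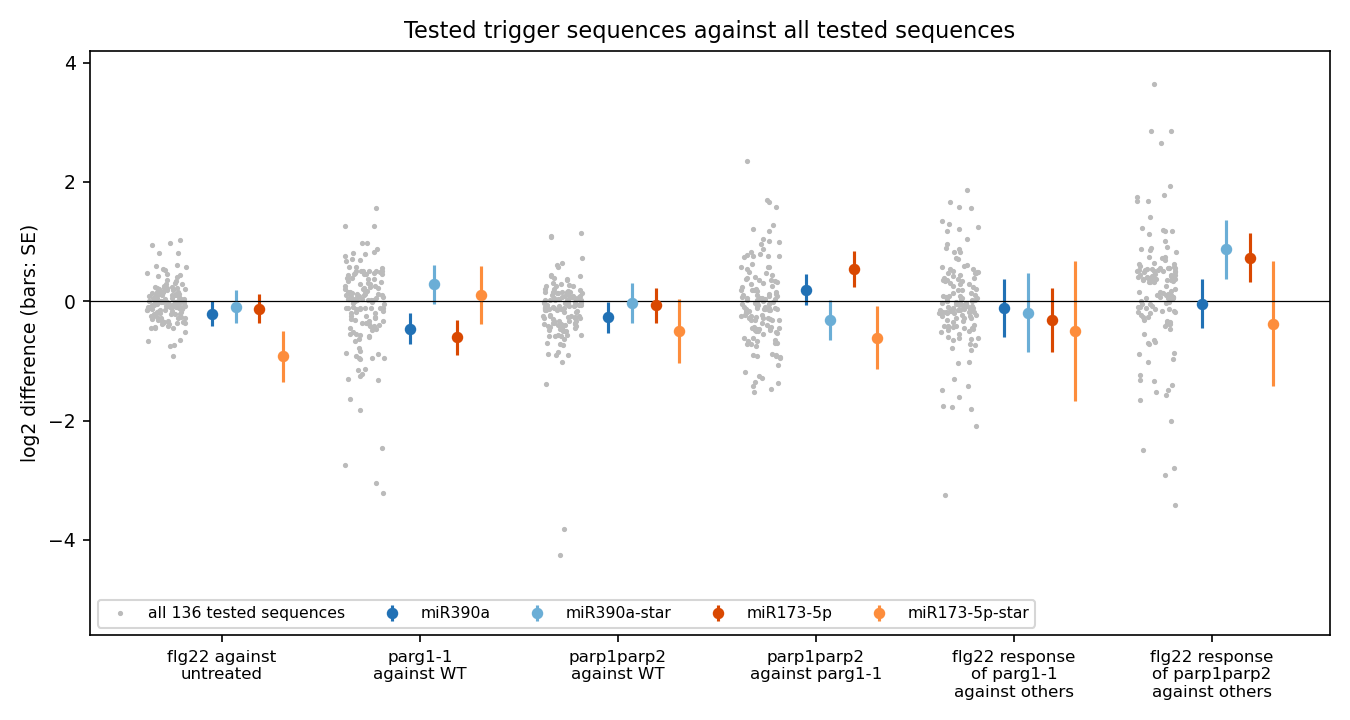
Log2 differences with SE of miR390a, miR390a-star, miR173-5p and miR173-5p-star in 4 contrasts and 2 tests of a genotype's own flg22 response, beside all distinct sequences tested (grey). miR173-5p runs from -0.61 in parg1-1 against WT to 0.73 for the flg22 response of parp1parp2, inside the grey spread in each contrast.

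Strand use was described as the star share of a duplex, which also needs no scaling. The miR390 stars together held 7.39% of miR390 duplex counts in untreated WT (exact 95% interval 5.73 to 9.36) and 5.76% (4.48 to 7.27) with flg22. In parg1-1 they held 10.3% (8.33 to 12.6) and 11.6% (9.23 to 14.3). In parp1parp2 they held 6.38% (4.74 to 8.37) and 10.2% (7.86 to 13.0). Both parg1-1 libraries were above both WT libraries, while parp1parp2 overlapped WT. The parg1-1 intervals overlap that of untreated WT, but not that of WT with flg22. Nearly all of the miR390 star counts were of miR390a-star, with 368 against 26 of miR390b-star, although the mature counts cannot be divided between the hairpins.

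The star share of miR173 was smaller. In WT, miR173-5p-star held 1.48% (0.768 to 2.57) of its duplex counts untreated and 1.44% (0.770 to 2.45) with flg22. It held 3.17% (1.95 to 4.85) and 1.69% (0.733 to 3.31) in parg1-1, and 1.82% (0.911 to 3.23) and 0.611% (0.167 to 1.56) in parp1parp2. Again both parg1-1 libraries were above both WT libraries, although their intervals overlap those of WT. Of the 45 duplexes with at least 50 counts in every library, 18 (40.0%) had a higher star share in both parg1-1 libraries than in both WT libraries, and 3 (6.67%) had a lower one. This order was thus frequent among duplexes, and 2 of 2 triggers is not a result about the triggers. Some of the 45 duplexes, such as that of miR403, had a star share of 0 in every library. Those could not be higher or lower in any comparison. Neither trigger (0 of 2) was above or below WT in this way in parp1parp2, where 9 of the 45 duplexes (20%) were higher and 8.89% lower.

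With flg22 the miR173-5p-star share was lower in 3 of 3 genotypes, and it was the 1 duplex of the 45 (2.22%) for which this held, while 17.8% were higher in all genotypes. Its mean was 1.25% ± 0.566 (SD, n = 3) with flg22 and 2.16% ± 0.893 untreated, a difference that failed the two-sided exact permutation test (p = 0.2, adjusted p = 0.6 over 3 measures, smallest possible p 0.1). That test exchanges libraries across genotypes, and exchanging treatments within genotypes gave an exact permutation p of 0.25, the smallest that 3 pairs allow, so neither could pass 0.05. The WT shares differed by less than their counting error. With both 3p-arm intervals counted, the 3p arm held 1.59% of all miR173 counts in WT untreated and 1.63% with flg22, so the order turned there. It was 3.29% and 1.87% in parg1-1 and 2.11% and 1.35% in parp1parp2. The miR390 star share was 9.19% ± 3.05 with flg22 and 8.04% ± 2.05 untreated (exact permutation p = 0.8, adjusted p = 1). That difference of 1.16 percentage points was -0.0423 without the parg1-1 library with flg22.

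Few counts of the 5p arm fell on its shifted interval. The interval shifted 1 base downstream (miR173-3p-star) held 1.21% of the 4057 counts of the 5p arm over all libraries (0.895 to 1.59), and between 0.746% and 1.69% in single libraries. On the 3p arm the annotated miR173-3p had 12 counts and the interval 1 base downstream, miR173-5p-star, had 68. In the parp1parp2 library with flg22 these were 5 and 4, where miR173-5p-star was the higher in the other 5 libraries. The whole 3p arm held 1.93% (1.54 to 2.40) of all miR173 counts. The intervals of an arm overlap, and how reads were assigned is not stated, so a read within both may count in each. The arm shares here and above assume that none did.

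**Figure D4:**
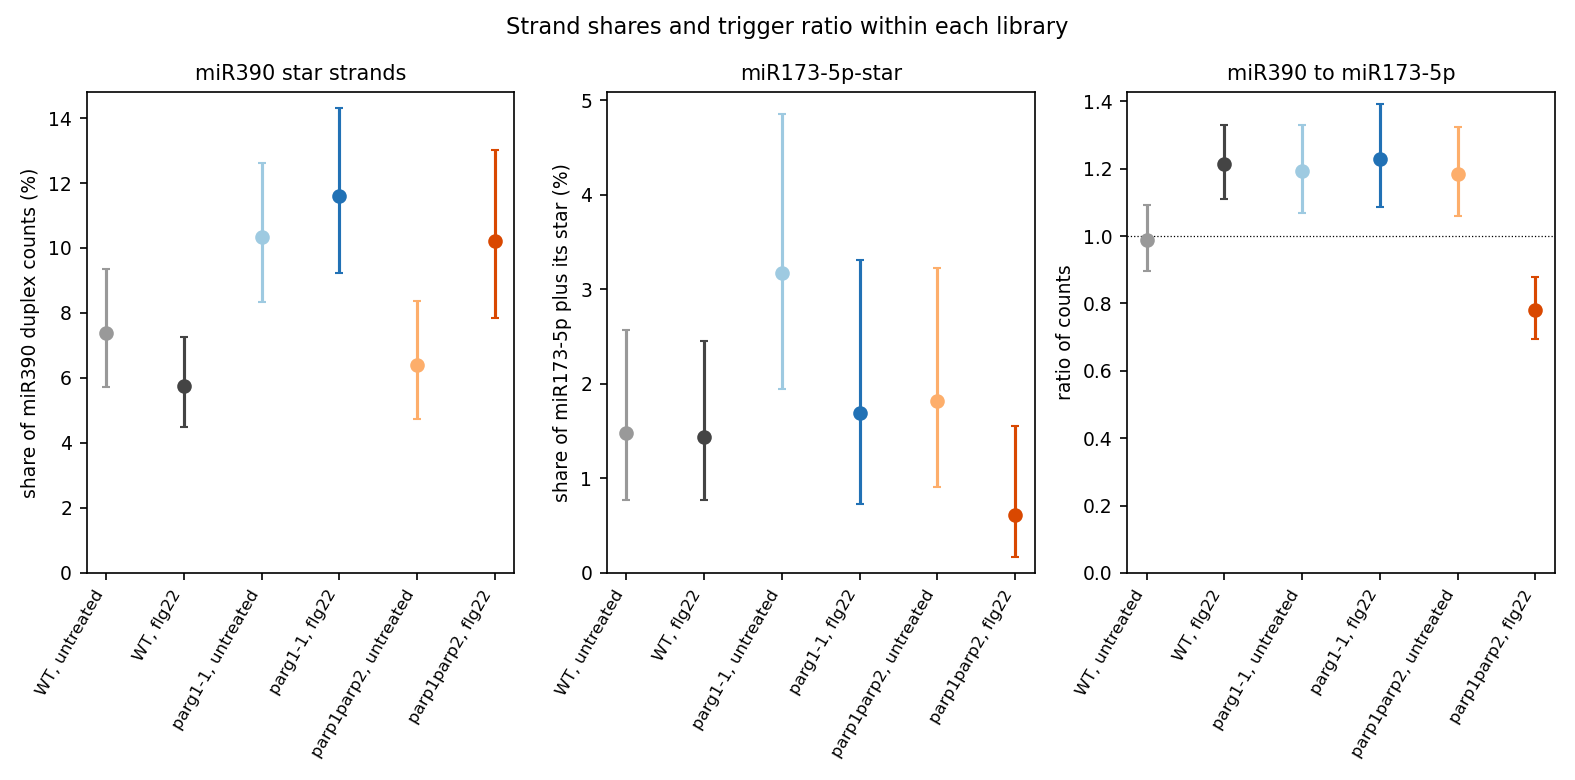
Star share of miR390 (both hairpins), star share of miR173-5p, and the ratio of miR390 to miR173-5p counts in each library, with exact binomial 95% intervals. The miR390 star share is 10.3% and 11.6% in parg1-1 against 7.39% and 5.76% in WT, an order that 40.0% of 45 duplexes had. The parg1-1 intervals overlap that of untreated WT. The ratio falls to 0.782 in parp1parp2 with flg22.

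By pattern over the 6 libraries, miR173-5p was most like miR400 (Pearson r = 0.968 of log2 scaled CPM), miR824 (0.961) and miR161.2 (0.956), among 134 sequences outside its family. miR390 was most like miR169h (0.980, on 1 to 19 counts), miR157d (0.965) and miR157a (0.955). miR390a-star was most like miR319a (0.927), miR5634 (0.920, on 8 to 14 counts) and miR824-star (0.897). miR390 and miR173-5p had r = 0.685 with each other, and miR390 and its star -0.372. These 6 points share their library scaling and carry no p.

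Other miRNAs of the pathway were read from the same fits. miR161, miR400, miR472, miR825 and miR393 set off secondary siRNAs from protein-coding transcripts such as those of PPR proteins, immune receptors and auxin receptors. The intervals of these families include star strands, so the counts and medians below are not of trigger strands alone. Of their 14 intervals 10 were tested, and 0 passed in the comparisons of flg22, of each mutant with WT or of the mutants, where 0.0%, 10.7%, 0.535% and 1.07% of all loci did, with medians of 0.05, 0.04, -0.01 and 0.06 beside -0.02, 0.03, -0.09 and -0.10 over all sequences. For its own flg22 response in parp1parp2, miR400 passed (1.68 ± 0.56 SE, edgeR adjusted p = 0.0493), 1 of the 10, where 5.88% of all loci did. It passed without the low-count filter (edgeR adjusted p = 0.0145). It did not pass with DESeq2 (adjusted p = 0.997), DESeq2 size factors (0.289) or identical sequences counted once (0.124). With flg22, miR400 went from 197 to 93.6 scaled CPM in WT, from 94.6 to 58.6 in parg1-1, and from 107 to 182 in parp1parp2. Among the most abundant members of the other families, the log2 difference for flg22 was 0.29 ± 0.19 for miR161.1, -0.0082 ± 0.24 for miR472, 0.15 ± 0.30 for miR825 and 0.05 ± 0.21 for miR393b-star, which is a star strand. Mature miR393a, added after its values were seen and resting on 10 to 34 counts, had -0.27 ± 0.32 for flg22 and -0.86 ± 0.39 in parg1-1 (adjusted p = 0.243).

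Trans-acting siRNAs share proteins with the miRNA pathway, and several of these are miRNA targets. Of 12 intervals of miR162 (aimed at DCL1), miR168 (AGO1), miR403 (AGO2) and miR838 (within DCL1), 9 were tested. In parg1-1, 2 rose and 0 fell (10.7% of all loci called), both of the miR162 sequence, with 1.27 ± 0.21 for miR162a (SE; edgeR adjusted p = 0.00824). With a library left out miR162a stayed between 1.12 and 1.49, but its edgeR adjusted p was 0.094 to 0.409 in 5 of 6 such fits, and 1.58e-06 without untreated parp1parp2. Untreated, miR162a had 8761 scaled CPM in WT against 18270 in parg1-1, and with flg22 9546 against 26340. miR403 had 0.51 ± 0.22 and miR168a 0.01 ± 0.31, and neither passed. For flg22 and for parp1parp2 against WT 0 of the 9 passed (0.0% and 0.535% of all loci called). Against parg1-1, 2 were lower in parp1parp2 (1.07% of all loci called), again of miR162. That call too was lost in the same 5 fits (adjusted p 0.123 to 0.884). miR838 was too scarce to test, with 44 counts in all. miR858, which like miR828 targets MYB transcripts, had 2 of 4 intervals tested and 0 called, where 0.0% to 10.7% of all loci were. miR858b had a log2 difference of -0.41 ± 0.30 in parg1-1 (edgeR adjusted p = 0.482).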

How the data were processed

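Small RNA libraries were deposited by the authors as whole-number read counts over 679 intervals, 1 library for each of 6 groups. Bowtie 0.12.8, bedtools and the TAIR10 build are named, without their role, per the submitters' processing notes. All 337 mature intervals matched miRNAs of RefSeq TAIR10.1. None of the 82 sequences (0) at more than 1 locus had unequal counts, so such reads appear to be counted at each locus.

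Loci that reached 10 counts in 2 or more libraries (187) were fitted with edgeR 4.0.16 (glmQLFit, glmQLFTest; R 4.3.3, limma 3.58.1), TMM scaling and an additive model of genotype and treatment with 2 residual degrees of freedom. Its biological coefficient of variation, edgeR's name for the fitted spread, was 22.8%. With 1 library per group, this spread is not one between replicates. The residual holds any difference between genotypes in the flg22 response together with noise. An adjusted p under 0.05 was called. The SE beside an edgeR log2 difference was its absolute value divided by the square root of the test's F statistic. Whether cultures were separate is not stated, so p-values measure only this residual spread among the 6 libraries, which may be technical. DESeq2 1.42.0, its size factors, no filter, identical sequences counted once and each library left out were tried. Single pairs were described by exact conditional binomial (Clopper-Pearson) 95% intervals, and shares by Clopper-Pearson ones. The chi-square per degree of freedom between libraries ran from 15.3 to 78.1, where sampling noise gives about 1, so all 6 were treated as separate libraries.

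Members, lists and tests were chosen with earlier results of these data known. Members with counts, loci called in the lists, the most abundant locus of each listed family and the 3 sequences most like each member with a mean of at least 50 counts (prior count 0.5) were named.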

Additional observations from a re-analysis of the deposited data

How the results depend on the processing

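Of 192 alternative values for the tested triggers, 171 kept their direction and side of the threshold, 20 turned in direction and 1 passed (miR173-5p between the mutants, above). No trigger was called in the fits as reported. For parp1parp2 against WT, miR173-5p was 0.0036 with DESeq2, 0.0039 with DESeq2 size factors and 0.0821 with identical sequences counted once, and miR390a-star 0.0391, 0.0389 and 0.12. The parp1parp2 response of miR390 was 0.0739 without a filter. With a library left out, miR173-5p ran from -0.37 to 0.0498 for flg22 and -0.25 to 0.29 for parp1parp2, miR390a-star from -0.37 to 0.17 for flg22, -0.30 to 0.39 for parp1parp2 and -0.67 to 0.11 between the mutants, and miR173-5p-star from -0.35 to 0.55 for parg1-1. The treatment difference ran from -0.0423 to 2.87 points for the miR390 star share and -0.124 to 0.10 for the miR390 to miR173-5p ratio; leaving out libraries for these was chosen after seeing the data.

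Counts of called loci moved more. They were 10 with DESeq2 and 12 with identical sequences counted once for parg1-1, against 20. For parp1parp2 they were 2 without a filter, against 1. Between the mutants they were 8 with DESeq2, 9 with its size factors, 4 without a filter and 13 with identical sequences once, against 2. For the parp1parp2 response they were 2, 0 and 5 with DESeq2, its size factors and identical sequences once, against 11. With a library left out, counts ran from 0 to 3 for flg22, 0 to 32 for parg1-1, 0 to 8 for parp1parp2 and 0 to 26 between the mutants. The fits with identical sequences counted once hold fewer loci, and those with a library left out hold fewer libraries. DESeq2 tested the same 187 loci. The cause of these moves was not tested. Counting identical sequences once moved the median of parp1parp2 against WT from -0.09 to 0.05 and that between the mutants from -0.10 to 0.03. The flg22 comparison already has genotype as a term, which pairs untreated with flg22 libraries. By replicate number, no paired analysis was possible because each group holds 1 library. Leaving out a library was not run for the tests of a genotype's own response, which would have no residual. At 0 to 20 counts, miR828, miR173-5p-star and the other scarce members are limited by depth.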

Other observations

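miR173-5p was the most counted of the 29 distinct 22-base mature sequences, with 4008 counts over the libraries, followed by miR167d with 3253 and miR472, which targets transcripts of immune receptors, with 427. A length of 22 bases is known to favour secondary siRNA production. Of the 32 intervals of this length, 10 were tested and 0 were called in any of the 6 contrasts by edgeR. Of all 187 loci, 0.0% to 10.7% were called in these contrasts, so 0 of 10 is not a result about this length. Their 8 distinct sequences had a median log2 difference of -0.13 in parg1-1, beside 0.03 over all sequences, and of 0.41 for the parp1parp2 response to flg22, beside 0.32. This group was chosen after its values were seen and was given no test.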
